A study of Arabidopsis thaliana with 4 samples.

Results

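Non-specific lipid transfer proteins and related proteins of the 2S albumin-like superfamily were examined in young, unopened floral buds of Arabidopsis thaliana. The family was given as 60 loci. Probe sets were matched by locus through GEO's platform annotation, keeping only those assigned to a single gene, and this gave 33 measured members, each by 1 probe set, out of 13286 named loci on the array. The other 27 members had no such probe set and were not analysed here, among them LTP3, LTP4, LTP5, LTP6, LTP12, ATA7, LTPG1 to LTPG6 and the xylogen genes XYP1 and XYP2. RNA came from Col-0 plants 24 days after seed germination, in 2 biological replicates for each genotype, cdm1 mutant or wild type, and 500 ng of total RNA was labelled per array. The labels name neither the cdm1 allele nor the developmental stage of the anthers, and they do not say how many plants gave each sample. Moderate drought is mentioned in the growth protocol, but no label ties it to any of the 4 samples. The mutated gene itself, locus AT1G68200, was not analysed here, so the genotype labels have no check in these values.

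Lipid transfer proteins are small secreted proteins held together by a conserved set of disulphide-bonded cysteines around a hydrophobic cavity that binds fatty acids and other lipids. Plants use them at their surfaces, where they take part in building cuticle, suberin and pollen wall, and in defence. In the anther, the tapetum lines the locule and secretes lipid transfer proteins toward the developing microspores. The type III members A9 (AT5G07230), AT5G62080 and AT5G52160 are tapetal proteins that move into the locule and become part of the exine, the outer pollen wall. CDM1 encodes a CCCH zinc finger protein needed for the callose walls around male meiotic cells and tetrads. The comparison asks how the transcripts of this family differ between mutant and wild type buds.

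In wild type buds, the brightest members were tapetal. A list of 8 tapetal loci was drawn up from general knowledge, with earlier results of these data known. Of the 8, 6 were measured: A9, AT5G62080, AT5G52160, AT3G52130, AT1G66850 and AT4G14815. Their levels are RMA values, which are background-corrected, normalised log2 signals. Of the 6 highest wild type levels in the family, 5 belonged to tapetal members. AT5G62080 led at 12.92 ± 0.0084 (mean ± SD, n = 2 arrays), brighter than 99.6% of all 22746 probe sets. AT5G52160 followed at 12.75 ± 0.071 and AT3G52130 at 12.51 ± 0.091. AT3G07450, a superfamily member outside the tapetal list, read 12.45 ± 0.11, A9 12.23 ± 0.033 and AT1G66850 11.96 ± 0.15. AT3G52130 and AT3G07450 overlapped between their arrays, so their order is within the replicate spread. Probes differ in how strongly they bind, so this order ranks signals and not transcript numbers. AT4G14815, the dimmest tapetal member, ranked 11 at 8.82 ± 0.017.

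Between AT1G66850 and AT4G14815 came 4 members outside the tapetal list. The type II protein gene AT1G48750 read 10.94 ± 0.0048 in wild type. AT5G48490, the paralogue of the systemic defence gene DIR1 known as DIR1-LIKE, read 10.31 ± 0.0062, AT5G55450 9.77 ± 0.17 and AT3G53980 9.58 ± 0.014. In all, 19 members had mean levels over the 4 arrays above 5.32, the upper limit of the dimmest 33.3% of probe sets. The other 14 lay below it, with wild type means from 3.36 to 4.74, and none of these was tapetal. Detection calls were not used here, so whether those 14 lay above background was not tested, and their log2 differences are differences between RMA values only.

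**Figure D1:**
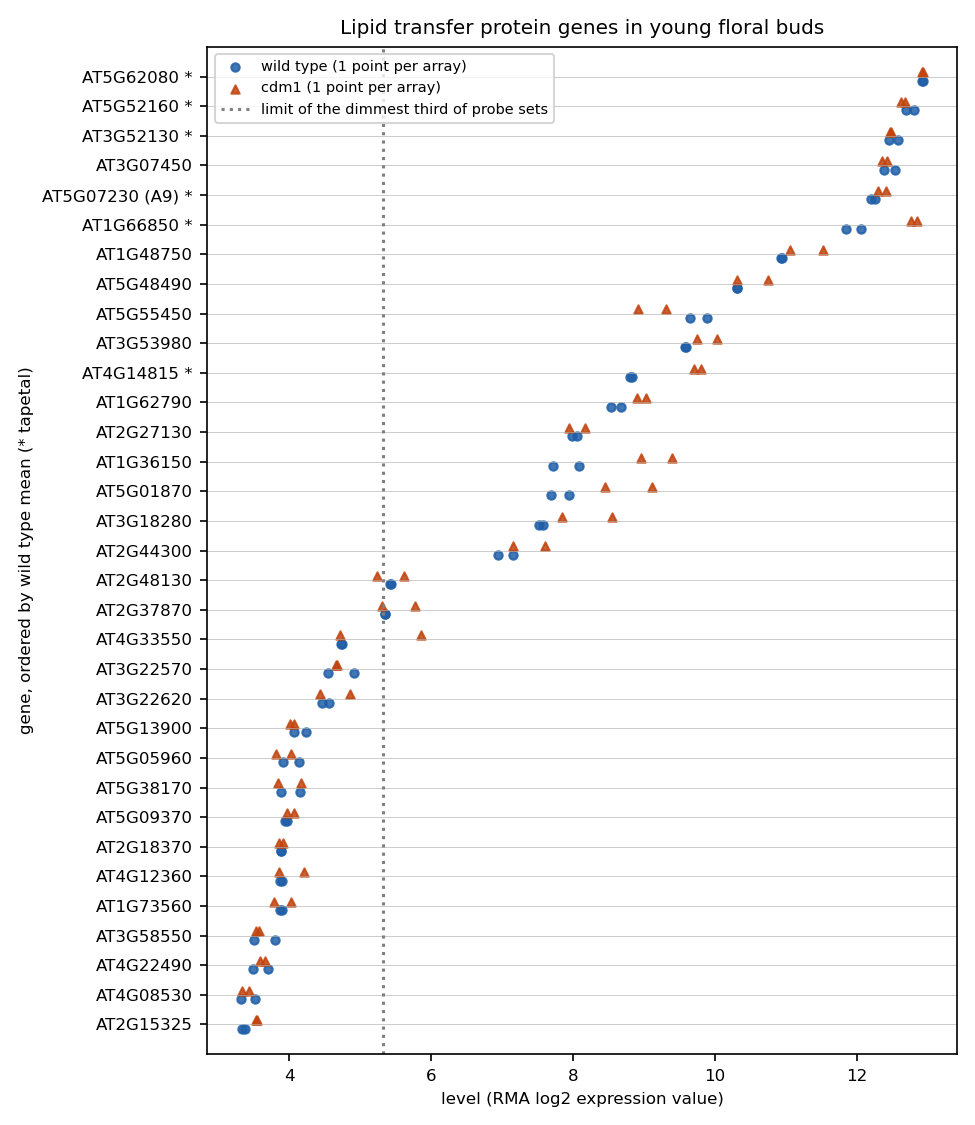
Levels of the 33 measured members (x axis, RMA log2 expression value), ordered from top to bottom by their wild type mean. Circles are the 2 wild type arrays, triangles the 2 cdm1 arrays, asterisks mark the 6 tapetal members and the dotted line is the limit of 5.32. AT1G66850, AT4G14815 and AT1G36150 show cdm1 arrays clearly to the right of the wild type arrays, while AT5G62080 shows all 4 arrays at 12.91 to 12.93.

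Among tapetal members, AT1G66850 and AT4G14815 were higher in cdm1 buds and the other 4 did not pass the test. AT1G66850, a type II lipid transfer protein gene, read 12.06 and 11.85 in wild type replicates 1 and 2, and 12.84 and 12.76 in cdm1 replicates 1 and 2. Both mutant arrays therefore lay above both wild type arrays. It rose 1.80-fold (log2 difference 0.84, SE 0.11, limma adjusted p = 0.0317), and 168 of the 22746 probe sets had a larger increase. AT4G14815, from the subfamily predicted to be held at the plasma membrane by a glycosylphosphatidylinositol (GPI) anchor, read 8.81 and 8.83 in wild type and 9.71 and 9.80 in cdm1. Its replicates differed by less than 0.10 in each genotype. It rose 1.91-fold (log2 difference 0.94, SE 0.093, limma adjusted p = 0.0136), the smallest adjusted p in the family. In whole buds, fewer cells of a type and less RNA per cell cannot be told apart, and the same holds for an increase.

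The 4 other tapetal members stayed close to their wild type levels. AT5G62080 read 12.92 and 12.91 in wild type and 12.91 and 12.93 in cdm1, so the groups overlapped. Its log2 difference was 0.0029, with a 95% interval from -0.21 to 0.22. A9, long used as a marker of the tapetum, read 12.20 and 12.25 in wild type and 12.30 and 12.40 in cdm1. Both mutant arrays were the higher ones, by a log2 difference with a 95% interval from -0.11 to 0.36 (limma adjusted p = 0.592). AT5G52160 read 12.80 and 12.70 in wild type and 12.68 and 12.62 in cdm1, with an interval from -0.33 to 0.14. AT3G52130 read 12.58 and 12.45 in wild type and 12.48 and 12.47 in cdm1, with an interval from -0.28 to 0.19. The intervals come from limma's moderated variance and are not adjusted for the number of genes. Those of AT1G66850 (0.58 to 1.11) and AT4G14815 (0.71 to 1.16) lie wholly above these 4, but differences between genes in their response were not tested. These 4 genes and AT1G66850 in cdm1 sit within the top 2 log2 units of the array, whose highest value was 14.02. Whether such signals were saturated was not tested, so the 1.80-fold of AT1G66850 is a ratio of RMA values only.

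Outside the tapetal list, AT1G36150 was the 1 member that passed, and it had the largest log2 difference of all 33. It belongs to the subfamily predicted to be GPI-anchored. It read 8.08 and 7.72 in wild type and 8.95 and 9.39 in cdm1, so that the groups did not overlap although the replicates in each genotype lay further apart than for the called tapetal genes. It rose 2.41-fold (log2 difference 1.27, SE 0.19, limma adjusted p = 0.0409), and 45 probe sets had a larger increase.

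Several other members were higher in cdm1 by log2 differences from 0.22 to 0.97 that did not pass. AT5G01870, a type I lipid transfer protein gene, read 7.94 and 7.69 in wild type and 9.12 and 8.44 in cdm1, a log2 difference of 0.97 (SE 0.23, limma adjusted p = 0.134). AT3G18280, of type II, read 7.58 and 7.53 in wild type and 8.54 and 7.84 in cdm1, a log2 difference of 0.64 (SE 0.22, limma adjusted p = 0.260). In both genes cdm1 replicate 1 was the highest of the 4 arrays by a wide margin. AT1G48750, also of type II, read 10.94 in each wild type array and 11.52 and 11.06 in cdm1 (log2 difference 0.35, SE 0.16). The GPI-anchored subfamily members AT1G62790 and AT2G44300 had log2 differences of 0.35 (SE 0.10) and 0.33 (SE 0.17), the former from 8.68 and 8.54 in wild type to 9.02 and 8.90 in cdm1, the latter from 7.15 and 6.95 to 7.60 and 7.16. AT3G53980 read 9.57 and 9.59 in wild type and 10.03 and 9.75 in cdm1. For AT1G48750, AT1G62790, AT2G44300 and AT3G53980, limma adjusted p-values ran from 0.199 to 0.408. DIR1-LIKE (AT5G48490) read 10.31 in each wild type array, 10.31 in cdm1 replicate 1 and 10.75 in cdm1 replicate 2, so its difference came from that last array. Its log2 difference was 0.22 (SE 0.15, limma adjusted p = 0.564), and 75.4% of all probe sets had a smaller change.

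The 1 sizeable decrease was that of AT5G55450, which read 9.89 and 9.65 in wild type and 8.91 and 9.31 in cdm1. The groups did not overlap, and the log2 difference of -0.66 (SE 0.16) did not pass (limma adjusted p = 0.144). AT3G07450, as bright as the tapetal genes, read 12.53 and 12.37 in wild type and 12.42 and 12.36 in cdm1. Its groups overlapped and its log2 difference was -0.066, with a 95% interval from -0.31 to 0.18.

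The dim members showed little. AT4G33550 read 4.74 and 4.75 in wild type, and 5.86 in cdm1 replicate 1 against 4.71 in cdm1 replicate 2, so 1 array made its log2 difference of 0.55 (SE 0.34). AT3G22570, AT5G13900, AT5G05960, AT3G58550 and AT4G08530 had the most negative differences outside the genes already given, between -0.11 and -0.035. AT5G13900 read 4.24 and 4.07 in wild type and 4.07 and 4.01 in cdm1, and AT5G05960 read 4.14 and 3.91 against 3.81 and 4.03. AT3G58550 read 3.80 and 3.50 in wild type and 3.54 and 3.57 in cdm1, AT3G22570 4.91 and 4.54 against 4.67 and 4.66, and AT4G08530 3.52 and 3.33 against 3.34 and 3.44. In each of these 5 genes the arrays of the genotypes overlapped or met. The remaining 11 members were not all dim, with wild type means from 3.36 to 8.02. They had log2 differences from -0.0085 to 0.19 and limma adjusted p-values from 0.397 to 0.991.

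**Figure D2:**
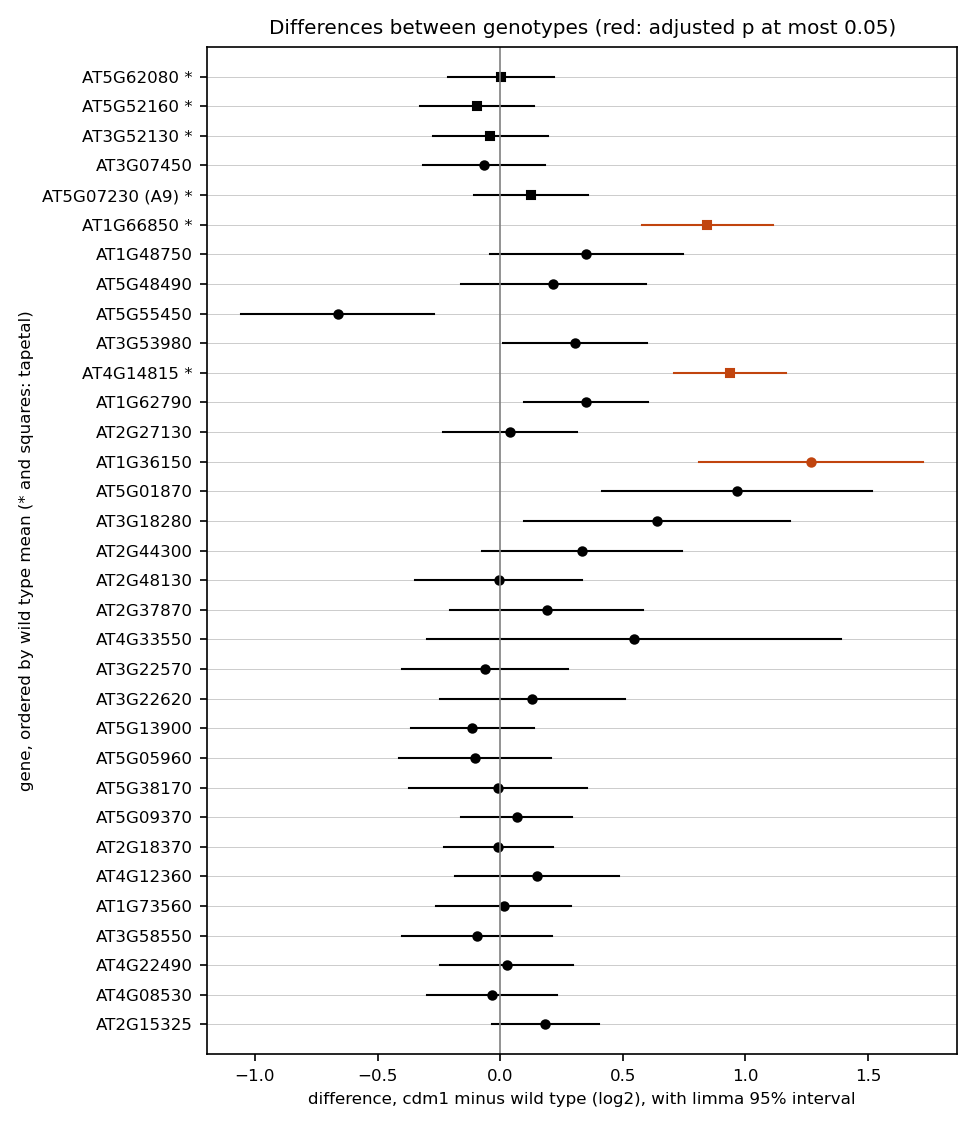
Difference between genotypes for each of the 33 members (x axis, log2 level in cdm1 minus that in wild type), in the same order as the plot of levels, with limma's 95% interval as a bar. Squares are tapetal members and red marks the 3 that passed at an adjusted p of 0.05. AT1G36150 at 1.27, AT4G14815 at 0.94 and AT1G66850 at 0.84 stand to the right, and AT5G55450 at -0.66 is the 1 point far to the left.

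Counted over the family, 3 of 33 members (9.09%) were higher in cdm1 by limma's test and 0 were lower, where 0.602% of all 22746 probe sets were called higher and 0.73% lower. At an unadjusted p of 0.05, 7 members were higher and 1 was lower, against 7.7% and 7.55% of all probe sets. The tapetal list held 2 of the 3 calls among its 6 measured genes, and the other 27 members held 1. The median log2 difference was 0.064 for tapetal members and 0.067 for the rest, against 0.0036 over all probe sets. The tapetal median lies among the 4 genes near 0, between AT5G62080 and A9. Without the dimmest 33.3% of probe sets, which hold 14 of the other 27 members, the median of the rest was 0.31 and the tapetal median stayed at 0.064. Over all probe sets kept by that filter, the median was 0.00013. The cdm1 arrays lay wholly above the wild type arrays for 12 members (36.4%) and wholly below for 2 (6.06%), where 23.7% and 23.6% of all probe sets did so. Of the 12, 10 were among the 19 brighter members (52.6%), and both members wholly below were among them too (10.5%). Over all probe sets with wild type means above the limit of 5.32, the shares were 25.3% wholly above and 27.7% wholly below. The members were chosen with results of these data known, so these counts are a description and not a test of the family.

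The cdm1 replicates differed more from each other in this family than the wild type replicates did. Their values lay more than 0.30 apart on the log2 scale for 13 of 33 members, with cdm1 replicate 1 higher in 8 and cdm1 replicate 2 higher in 5. The wild type replicates did so for 3 members, each with replicate 1 higher. Over all probe sets the shares were 15.1% for cdm1 and 8.21% for wild type. None of the 6 tapetal members was among the 13: their cdm1 replicates differed by at most 0.10 and their wild type replicates by at most 0.21. Small gaps were not confined to them. AT3G07450, as bright but outside the list, had differences of -0.064 in cdm1 and -0.16 in wild type (replicate 2 minus 1). The widest gaps were those of AT4G33550, AT3G18280 and AT5G01870, at log2 differences between cdm1 replicates 2 and 1 of -1.15, -0.70 and -0.67.

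**Figure D3:**
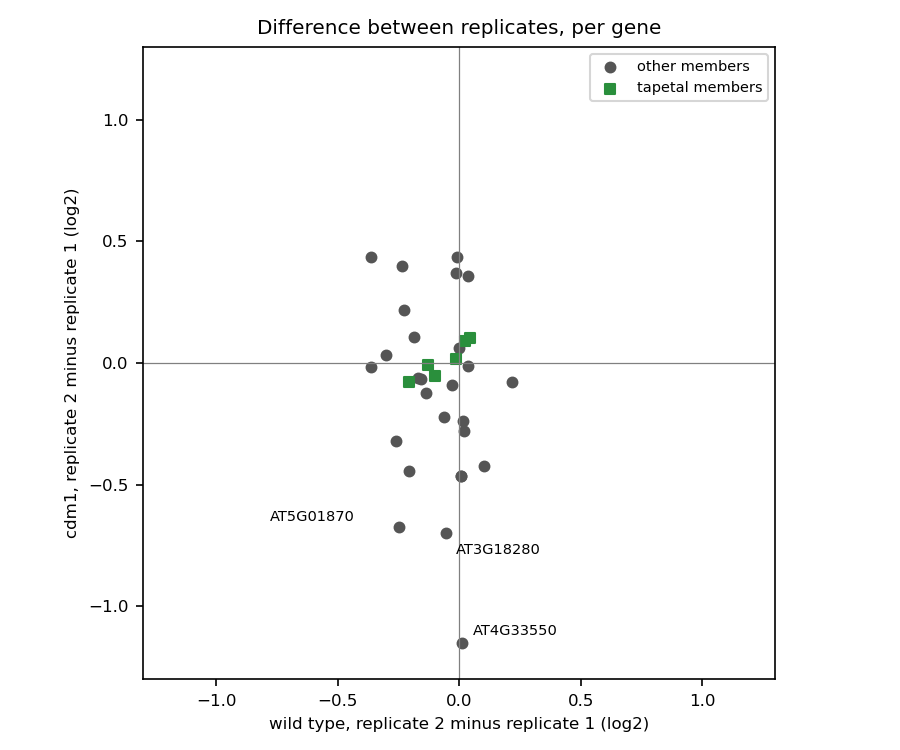
Difference between the 2 replicates of each genotype for the 33 members, wild type on the x axis and cdm1 on the y axis, both as replicate 2 minus replicate 1 on the log2 scale. Green squares are the tapetal members, which lie near the centre. The other members, grey circles, spread more along the cdm1 axis, down to -1.15 for AT4G33550.

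The 3 increases were recomputed with each array left out in turn; since their groups do not overlap, this cannot turn their sign. AT4G14815 ranged from 0.89 to 0.98 on the log2 scale, AT1G66850 from 0.74 to 0.95 and AT1G36150 from 1.05 to 1.49. Without cdm1 replicate 1, AT1G66850 missed the threshold. Without either wild type array none of the 3 passed, nor did any other probe set of the array. Without cdm1 replicate 2, 8 members passed, the 3 above with AT1G48750, AT3G18280, AT4G33550 and AT5G01870 as higher and AT5G55450 as lower, and calls over all probe sets rose from 303 to 1040. These 5 are genes whose cdm1 replicate 1 lay further from wild type than replicate 2.

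**Figure D4:**
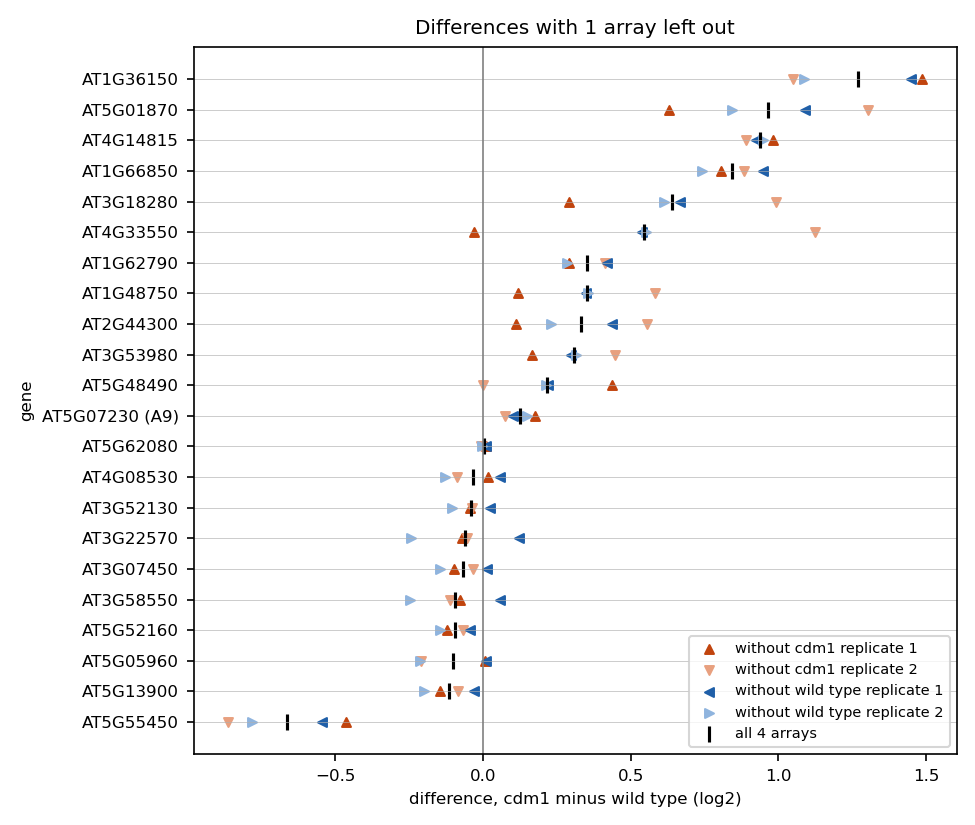
Log2 difference between cdm1 and wild type (x axis) for the 22 members given by name, with all 4 arrays (black ticks) and with each array left out in turn (coloured triangles). The triangles stay close to the ticks for AT4G14815 and AT1G66850 and spread widely for AT4G33550, from -0.031 to 1.12.

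Named subfamilies were measured only in part. A list of 10 LTPG and XYP genes does not hold all GPI-anchored subfamily members given above. It leaves out the called AT4G14815 and AT1G36150, and AT1G62790 and AT2G44300, which did not pass. The list had 2 measured genes, and neither passed. Of the 2, AT3G22620 had the smaller adjusted p (0.750), at a log2 difference of 0.13 (SE 0.15) between dim levels of 4.52 in wild type and 4.65 in cdm1. Of 9 type I genes, 3 were measured and none passed, AT5G01870 being the nearest. Physical neighbours could not be followed together: 10 pairs of members lie next to each other or within 2 protein-coding genes in the TAIR10.1 gene order, and no pair had both genes measured. AT4G14815 lies 1 gene away from the member AT4G14805, which was not analysed here.

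Genes of the wider lipid and pollen wall pathways were set beside the family from lists of known loci. Of 28 genes of cuticle and surface lipids, 3 were measured and none passed. AT5G33370, the cutin synthase gene CUS2, had the smallest adjusted p, with wild type at 12.43 ± 0.0046 and cdm1 at 12.79 ± 0.13 (log2 difference 0.36, SE 0.10, limma adjusted p = 0.191). Of 17 genes of sporopollenin and the pollen wall, 3 were measured, with a median log2 difference of 0.41 and none passing. Of the 3, SWEET8 had the smallest adjusted p (log2 difference 0.56, SE 0.15, limma adjusted p = 0.172). Of 12 pollen coat protein genes, the 4 measured were extracellular lipase (EXL) genes with a median of 0.55, and none passed. Among these, the lipase gene AT1G75880 had the smallest adjusted p (0.180), at 0.54 (SE 0.15). The cdm1 arrays lay wholly above the wild type arrays for all 3 wall genes, all 4 lipase genes and 2 of the 3 cuticle genes, against 23.7% of all probe sets.

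Tapetum markers were also higher in cdm1 in summed level, but unequally from gene to gene. Of 9 tapetum markers 3 were measured, AMS, SHT and ATA27. Summed after conversion of the RMA values to the linear scale, they gave 5522 and 6392 in the cdm1 arrays against 3985 and 3517 in the wild type arrays. SHT, which makes phenolamides of the pollen wall, was the 1 marker that passed (log2 difference 1.73, SE 0.24, limma adjusted p = 0.0367). ATA27 had a log2 difference of 0.94 (SE 0.18, limma adjusted p = 0.0905). That of AMS was 0.18 (SE 0.089, limma adjusted p = 0.395). In the wider list of 16 tapetum regulators and secretion genes, 6 were measured and SHT was the 1 that passed, at a median log2 difference of 0.15. Its genes AT1G06170 and AT2G31210 had log2 differences of 0.067 and 0.12. UNDEAD (AT4G12920), an aspartic protease gene of the tapetum, went the other way, reading 8.99 and 9.63 in wild type and 8.57 and 8.78 in cdm1 (log2 difference -0.64, SE 0.21, limma adjusted p = 0.245). On the tapetal list, A9, AT5G62080, AT5G52160 and AT3G52130 had differences between -0.095 and 0.12, at levels where saturation was not tested. The part of tapetum amount in these differences, or in the increases of AT1G66850 and AT4G14815, was not tested.

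Markers of other cells gave no call. The 4 measured of 13 male meiosis markers summed to 190 and 191 in cdm1 and to 266 and 224 in wild type. Their median log2 difference was -0.38. The cdm1 arrays lay wholly below the wild type arrays for 3 of these 4, against 23.6% of all probe sets. The 4 measured of 14 late pollen markers summed to 174 and 163 in cdm1 and 191 and 172 in wild type, with wild type means no higher than 6.51 on the log2 scale. For 3 of them the cdm1 arrays lay wholly below the wild type arrays, and for 1, ACT12, wholly above (23.6% and 23.7% of all probe sets). The green tissue marker LHCB4.2, 1 of 8 listed, had a log2 difference of 0.085, and the carpel and ovule markers INO and SPT, 2 of 7, had 0.23 and -0.022. The epidermis markers ATML1, PDF1 and PDF2 were not analysed here. RMA values have no true zero, so no marker can be called absent, and the part of these tissues in the family's differences was not tested.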

How the data were processed

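The authors deposited 1 table of log2 expression for 2 cdm1 and 2 wild type arrays. Per the submitters' processing notes, RMA was used with the affy package (no versions given). The values themselves show the log2 scale: they run from 2.64 to 14.02 with array medians of 7.21 to 7.24. The table holds 22746 probe sets. The platform annotation gave 1 gene symbol for 13513 of them and several for 503, and 8730 were not listed. Gene records of TAIR10.1 tied 13436 probe sets to 13286 loci and served only for names and gene order, since no genome build is given in the sources used here. All 60 family loci had a gene record, and none of the 33 member probe sets carries Affymetrix's mark for shared probes.

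The genotype difference was fitted over all probe sets, with no other covariate, in limma 3.58.1 (R 4.3.3) with empirical Bayes variances (2 residual and 4.00 prior degrees of freedom). Two-sided p-values were adjusted by Benjamini-Hochberg over the whole table, with a threshold of 0.05. An exact permutation test of 2 against 2 arrays cannot go below 0.333 and was not run. On simulated data for the same comparison over 22746 probe sets, 85% of 2-fold and 100% of 4-fold changes were recovered, with 14 false among 199 calls. The simulated noise was drawn from limma's own fitted variance prior, equal in both genotypes. Recovery in the real arrays, whose cdm1 replicates lay further apart, can therefore differ. The 2 arrays per group limit the precision. The limma p-values combine the spread between these samples with a prior variance estimated over all probe sets. That prior carries 4.00 degrees of freedom, against 2 from the arrays.

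Members and gene lists were chosen with earlier results of these data known. Values per array are given for the measured tapetal members, the 10 members brightest in wild type, the members past the threshold and, among the others, the 5 largest changes in each direction. From each further list other than the cell type markers, the called genes, or the gene with the smallest adjusted p, are named. Where a locus had several probe sets the brightest was used. The alternatives were 2 other normalisations, a filter on dim probe sets, 2 variance priors, ordinary p-values, a replicate block, 1 probe set per locus, each array left out, and 2 other tapetal lists.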

Additional observations from a re-analysis of the deposited data

How the results depend on the processing

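The 3 increases (AT1G36150, AT1G66850 and AT4G14815) passed, and no other member did, with either renormalisation (quantile or median), with either variance trend, without the dimmest 33.3% of the table and with a single probe set for each locus. A fit with a replicate block gave 0 limma calls among members and 0 over all probe sets. The numbers are not known to pair the samples: same-numbered arrays' deviations from their group means correlated at -0.066. Ordinary linear-model p-values also gave 0 member calls, with 1 call over all probe sets. Leaving out 1 array gave between 0 and 8 member calls (0 of all probe sets without either wild type array, 293 without cdm1 replicate 1 and 1040 without cdm1 replicate 2), with fewer arrays in the fit and the lone array's spread taken from the other genotype. Over all settings the limma adjusted p ran from 0.0131 for AT1G36150, 0.00367 for AT1G66850 and 0.00290 for AT4G14815 up to 0.288, 0.244 and 0.177; ordinary p-values gave 0.501, 0.447 and 0.335 after adjustment. The median of the other members moved from 0.067 to 0.31 without dim probe sets, since 14 members then drop out. It ran from 0.018 to 0.13 with 1 array left out, and the tapetal median from 0.034 to 0.094. The tapetal median was 0.0029 over the narrow list (3 measured genes), against 0.099 for the rest, and the broad list added no measured gene. Signs turned for AT5G62080 (-0.0017) after quantile normalisation and, with 1 array left out, for 9 members in all whose differences were small or rested on 1 array: AT5G62080 (-0.0056 to 0.011), AT3G52130 (-0.11 to 0.024), AT3G07450 (-0.15 to 0.013), AT5G48490 (-0.0016 to 0.44), AT4G33550 (-0.031 to 1.12), AT3G22570 (-0.24 to 0.12), AT3G58550 (-0.25 to 0.056), AT5G05960 (-0.21 to 0.011) and AT4G08530 (-0.13 to 0.059).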
